A study of Zea mays with 9 samples.

Results

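Benzoxazinoids are indole-derived defence compounds of maize and other grasses, which young seedlings hold in large amounts as glucosides. BX1 releases indole from indole-3-glycerol phosphate, the cytochrome P450 enzymes BX2 to BX5 oxidise it in turn to DIBOA, the glucosyltransferases BX8 and BX9 attach glucose, and the dioxygenase BX6 and later methyltransferases such as BX14 modify the glucoside. When tissue is damaged, a beta-glucosidase removes the glucose and frees the toxic aglucone. The genes described here are 9 of this pathway (bx1, bx2, BX3, BX4, BX5, bx6, bx8, bx9 and BX14) and the beta-glucosidase gene glu2, taken by their identifiers as 10 of the 39301 genes in the deposited table.

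RNA came from germinating maize seeds in 3 groups of 3 biological replicates. The labels call them CK, NaCl and NaCl+MT and do not spell out CK or MT, while the title speaks of salt stress and of melatonin supplied from outside. Neither a dose, a time nor a maize line is given, nor whether a replicate is 1 seed or a pool. Values are FPKM, fragments scaled by gene length and by the mapped total of the library, which correct for gene length and so allow levels of different genes to be compared. The genes were chosen by identifier, with the measured levels of bx1 and glu2 known for the NaCl libraries beside either other group. Differences of NaCl from CK, and of NaCl+MT from NaCl, are therefore a description of these genes without a test.

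NaCl replicate 1 stands apart from the other NaCl libraries, and results that rest on it are given with and without it. Across tested genes, correlations of log2 values ran from 0.938 to 0.974 among NaCl libraries, against 0.973 to 0.984 among CK and 0.974 to 0.992 among NaCl+MT libraries. Sequencing depth, estimated from the steps between low FPKM values and set to 1 for CK replicate 1, was lowest at 0.538 (NaCl replicate 3) and highest at 1.82 (CK replicate 2). Of the seed markers, the isocitrate lyase gene ICL, of stored oil use in the embryo and aleurone, lay between 1623 and 2582 FPKM in every library. The endosperm regulator o2 was listed at 0 throughout, the zein gene zp27 stayed at or below 0.832 and the C4 leaf enzyme gene pep1 (GRMZM2G083841) at or below 0.01. Another gene of that name, Pep1 (GRMZM5G899080), had 0.847 to 1.85 in CK, 0.543 to 1.51 in NaCl and 1.565 to 4.70 in NaCl+MT. In the embryo and aleurone list 3 of 5 genes passed the filter on low values. Their summed levels were 1632 to 2592 in CK, 1687 to 2392 in NaCl and 2199 to 2407 in NaCl+MT, mostly ICL. The sums therefore say little of the others in this list. Of these, ole1 had 6.76 to 7.33 in CK, 10.5 to 17.9 in NaCl and 6.12 to 10.3 in NaCl+MT. Its NaCl values lay above all others. For vp1, NaCl overlapped with both other groups, and NaCl+MT lay above CK. In the starchy endosperm list 3 of 9 passed, with sums of 39.6 to 47.8, 230 to 382 and 63.1 to 84.4, most of it the sucrose synthase gene sh1. In the green leaf list 5 of 7 passed, with sums of 726 to 1182, 460 to 596 and 578 to 920, most of it the pyruvate phosphate dikinase gene pdk1 (GRMZM2G306345). The single germinating aleurone marker, Amy2, lay at 34.7 to 49.3, 14.4 to 22.6 and 20.6 to 22.6. The part of these differences in the results below was not tested.

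The genes bx1 to bx6 were among the most abundant transcripts of control seeds, at the 76th place or above in each CK library. The others stood lower, bx8 at the 354th to 610th place, bx9 at the 805th to 954th, BX14 at the 5117th to 6664th and glu2 at the 7686th to 9697th. In CK, bx1 was the 4th, 2nd and 2nd highest of all genes in replicates 1, 2 and 3, and BX5 the 9th, 6th and 6th. Together the 10 genes held 1.497%, 2.65% and 2.28% of the FPKM sum of the CK libraries. In NaCl the share was 0.129%, 0.626% and 0.598%, and in NaCl+MT 1.56%, 1.72% and 1.61%. All NaCl shares lay below all others, with NaCl replicate 1 lowest, and NaCl+MT overlapped with CK. In bulk seeds, fewer cells that express a gene and less RNA per cell cannot be told apart. The part of the sum due to bx1 alone was 34.5 to 41.4% of that of the 10 genes in CK and 26.3 to 29.4% in NaCl+MT, against 0.0295%, 5.68% and 10.7% in NaCl replicates 1, 2 and 3.

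**Figure D1:**
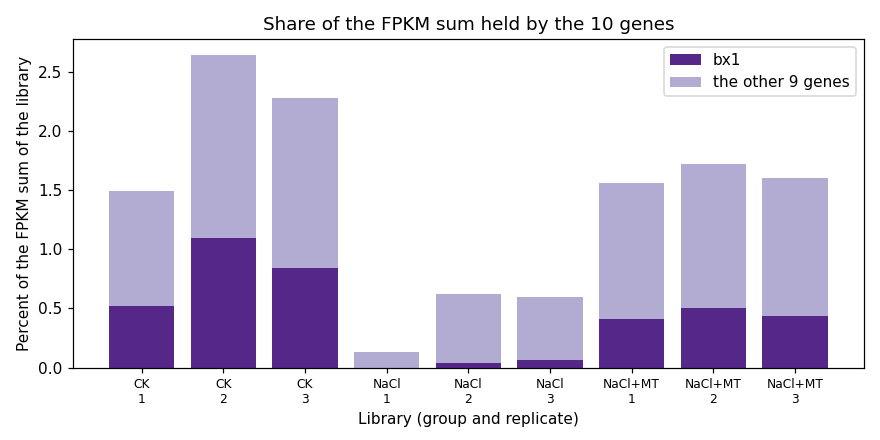
Percent of each library's FPKM sum (y axis, from 0) held by bx1 (dark) and by the other 9 genes (light), for the 9 libraries. The CK bars reach 1.497 to 2.65% and the NaCl+MT bars 1.56 to 1.72%, while the NaCl bars stay at or below 0.626% with little or no dark part.

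Within CK the order of mean levels was bx1 (4489 ± 1577 FPKM, SD, n = 3), BX5 (2094 ± 526), bx6 (1460 ± 307), BX3 (1333 ± 309), BX4 (1248 ± 307), bx2 (776 ± 202), bx8 (195 ± 40.5), bx9 (107 ± 10.02), BX14 (17.1 ± 2.31) and glu2 (10.8 ± 2.10). The ranges of BX5 and bx6, bx6 and BX3, BX3 and BX4, and BX4 and bx2 overlapped, and the other neighbours in this order did not. In NaCl+MT bx1 again led with 2427 ± 239, followed by BX5 with 1854 ± 70.5, and neither range overlapped with the next. In NaCl, BX5 (622 ± 473) came first and bx1 (178 ± 170) stood in the 5th place, where every neighbour but bx8 and glu2 overlapped.

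The entry gene bx1 (GRMZM2G085381), whose product diverts indole-3-glycerol phosphate into the pathway, had 2832, 5971 and 4664 FPKM in the CK libraries. In NaCl it had 0.211 in replicate 1, 195 in replicate 2 and 339 in replicate 3, and in NaCl+MT 2229, 2692 and 2360. The 3 groups did not overlap, with NaCl replicate 1 far below every other library. The CK mean was 25.2 times the NaCl mean, and 16.8 times that of NaCl replicates 2 and 3. On the scale of log2(FPKM + 1) the difference of NaCl from CK was -6.63 (SE 1.61 of the limma fit across all tested genes), and -4.05 (SE 0.35) without NaCl replicate 1. NaCl+MT lay 5.81 above NaCl (SE 1.61), and 3.23 (SE 0.35) without that library.

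Next in the pathway, the P450 gene bx2 (GRMZM2G085661), whose enzyme hydroxylates indole, had 547, 930 and 850 FPKM in CK, 2.85, 189 and 213 in NaCl and 599, 591 and 588 in NaCl+MT. The NaCl libraries were the lowest again, and CK and NaCl+MT overlapped. Its NaCl mean was 17.4% of the CK mean and its NaCl+MT mean 76.4%. The log2 difference of NaCl from CK was -3.81 (SE 1.19), or -1.91 (SE 0.23) without NaCl replicate 1.

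The P450 genes BX3 (GRMZM2G167549), BX4 (GRMZM2G172491) and BX5 (GRMZM2G063756), whose enzymes carry the intermediate on to DIBOA, kept more of their level. BX3 had 999, 1608 and 1393 FPKM in CK, 51.7, 425 and 425 in NaCl and 1227, 1238 and 1187 in NaCl+MT. BX4 had 898, 1473 and 1373, then 78.2, 690 and 587, then 1250, 1171 and 1161. BX5 had 1519, 2553 and 2209, then 77.3, 919 and 871, then 1793, 1932 and 1838. In each of these genes every NaCl library was below every CK and NaCl+MT library, and CK and NaCl+MT overlapped. Mean levels in NaCl were 22.5%, 36.2% and 29.7% of CK for BX3, BX4 and BX5. Log2 differences of NaCl from CK were -2.62 (SE 0.66), -1.94 (SE 0.66) and -2.36 (SE 0.76), and -1.62, -0.94 and -1.19 without NaCl replicate 1.

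Of the genes that act on the finished ring, bx6 (GRMZM6G617209), the dioxygenase gene, had 1125, 1529 and 1726 FPKM in CK, 67.0, 715 and 486 in NaCl and 1067, 1216 and 1218 in NaCl+MT. It thus had the pattern of the P450 genes, with a log2 difference of NaCl from CK of -2.32 (SE 0.68), or -1.28 without NaCl replicate 1. The glucosyltransferase genes bx8 and bx9, whose enzymes attach the same sugar to the same ring, differed from each other. The gene bx8 (GRMZM2G085054) had 149, 215 and 222 in CK, 45.8, 132 and 117 in NaCl and 134, 177 and 177 in NaCl+MT. Its NaCl values lay below all others, but the highest of them, 132, came close to the lowest NaCl+MT value of 134. In bx9 (GRMZM2G161335) the values were 106, 97.7 and 118 in CK, 110, 120 and 93.9 in NaCl and 153, 113 and 126 in NaCl+MT. All 3 groups overlapped in bx9, and its difference of NaCl from CK was 0.01 (SE 0.17). The bx8 to bx9 ratio was 1.40 to 2.20 in CK, 0.416 to 1.25 in NaCl and 0.873 to 1.57 in NaCl+MT. How the authors' counting shared reads between these similar genes is not given in the sources used here.

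BX14 (GRMZM2G127418), a gene of a late O-methyltransferase, went the other way. It had 15.4, 19.8 and 16.2 FPKM in CK, 281, 46.2 and 34.6 in NaCl and 27.6, 17.2 and 19.9 in NaCl+MT. Every NaCl value exceeded every value of the other groups, and NaCl replicate 1, lowest in the early genes, was highest here with 6.97 times the mean of the other NaCl libraries. The log2 difference of NaCl from CK was 2.11 (SE 0.60), or 1.18 (SE 0.21) without NaCl replicate 1. NaCl+MT lay 1.82 below NaCl as a log2 difference (-1.82, SE 0.60), or -0.89 without that library.

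The beta-glucosidase gene glu2 (GRMZM2G008247), of an enzyme family that frees benzoxazinoids from their glucosides, had 12.9, 10.6 and 8.75 FPKM in CK, 0.1, 0.04 and 0.433 in NaCl and 11.6, 12.3 and 10.8 in NaCl+MT. NaCl was far below both other groups, which overlapped, and NaCl replicate 1 did not stand apart. From the steps of low values and the relative depth, the smallest whole reads that fit the NaCl values were 7, 3 and 14 in replicates 1, 2 and 3. Larger numbers may fit too. The log2 difference of NaCl from CK was -3.30 (SE 0.18) and that of NaCl+MT from NaCl 3.41 (SE 0.18), -3.25 and 3.36 without NaCl replicate 1. With a pseudocount of 0.1 in place of 1 these were -5.45 and 5.57.

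**Figure D2:**
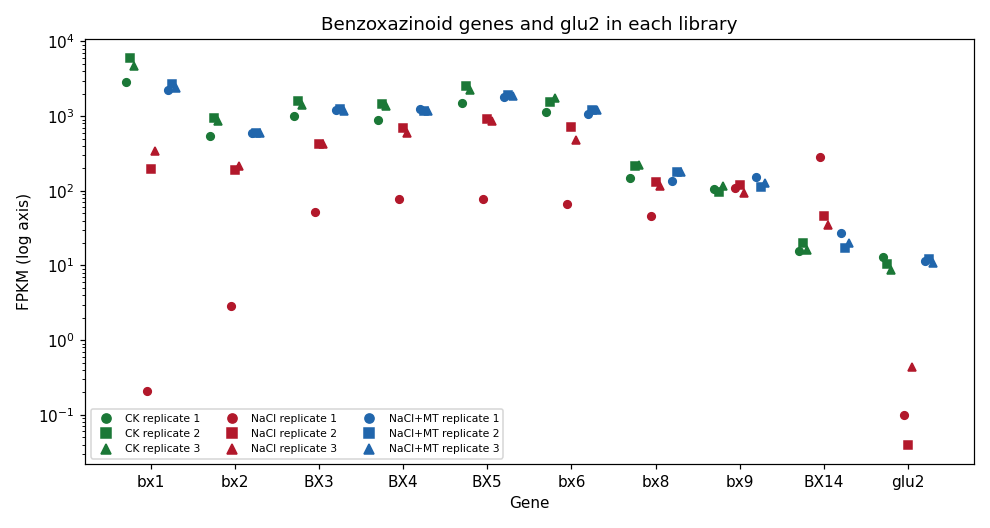
FPKM (log axis) of the 9 benzoxazinoid genes and glu2 in each of the 9 libraries, coloured by group, with the replicate as the symbol. NaCl points (red) lie below the others for bx1 to bx6, bx8 and glu2, above them for BX14 and among them for bx9, and NaCl replicate 1 reaches 0.211 in bx1 and 281 in BX14.

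In all, 9 of the 10 genes had no overlap between NaCl and CK, 8 lower in NaCl and 1 higher. Of the 22379 tested genes 40.9% had none, 18.1% lower and 22.8% higher, and 26% passed the limma threshold. Between NaCl+MT and NaCl 9 of 10 had no overlap, 8 higher in NaCl+MT and 1 lower, against 36.6% of tested genes, 21.2% higher and 15.4% lower, with 18.6% past the threshold. The gene with overlap was bx9 in both. Because the genes were chosen with these comparisons known, nothing is read from the counts. The median log2 difference of NaCl from CK was -2.34 over the 10 genes and 0.03 over all tested genes, and that of NaCl+MT from NaCl was 2.12 and 0.03. These medians include NaCl replicate 1. BX5 and bx6, at the middle of the 10, had -2.36 and -2.32 for NaCl against CK, but -1.19 and -1.28 without it. For NaCl+MT against NaCl they had 2.22 and 2.02, but 1.05 and 0.98 without it. Both comparisons use the same NaCl libraries.

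Among the 9 synthesis genes, the remaining level in NaCl was lowest at the entry of the pathway. The NaCl levels of bx1 and glu2 were known when the genes were chosen, so this order is a description. In NaCl replicates 2 and 3, bx1 held 4.34% and 7.56% of its CK mean, bx2 24.4% and 27.5%, BX3 31.9% and 31.9%, BX5 43.9% and 41.6%, BX4 55.3% and 47.0%, bx6 49.0% and 33.3%, bx8 67.6% and 60.1%, and bx9 112% and 87.6%. In NaCl replicate 1 the levels ran from 0.00470% for bx1 and 0.367% for bx2 to 3.69 to 6.27% for BX3, BX4, BX5 and bx6, 23.5% for bx8 and 103% for bx9. Among these 9 genes bx1 kept the least in each of the 3 NaCl libraries, bx2 the next least, and bx8 more than any P450 gene. BX4 kept more than BX3, BX5 and bx6 in each of them, and those changed places between libraries. The glucosidase gene glu2 kept 0.928%, 0.371% and 4.02% in NaCl replicates 1, 2 and 3, less than bx1 in replicates 2 and 3. In NaCl+MT the mean of bx1 was 54.1% of its CK mean, that of bx2 76.4%, and those of BX3, BX4, BX5, bx6 and bx8 80.0 to 95.7%.

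**Figure D3:**
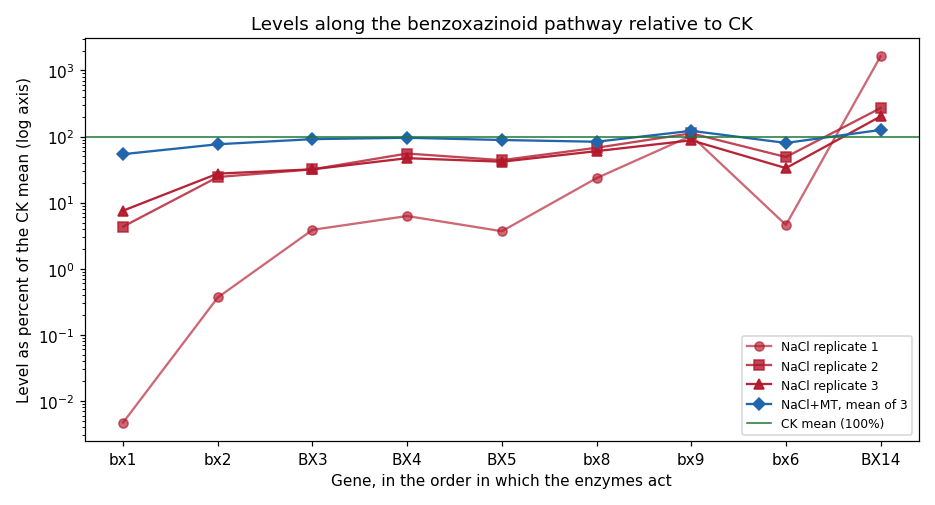
Level as percent of the CK mean (log axis) of 9 genes in the order in which their enzymes act, for each NaCl library (red) and the mean of the 3 NaCl+MT libraries (blue), with the CK mean as a green line at 100%. The red lines start lowest at bx1, at 0.00470% in NaCl replicate 1 and 4.34 and 7.56% in the others, come near the CK level at bx9, drop again at bx6 to 4.59, 49.0 and 33.3%, and end above it at BX14.

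The proportions between the steps changed with this. Here too the levels of bx1 were known beforehand, and how often ratios of other genes lack overlap was not computed. The bx1 to bx2 ratio of FPKM was 5.18, 6.42 and 5.49 in CK, 0.0741, 1.03 and 1.59 in NaCl and 3.72, 4.56 and 4.01 in NaCl+MT, so the 3 groups did not overlap. The BX4 to bx2 ratio was 1.58 to 1.64 in CK, 1.97 to 2.09 in NaCl+MT and 2.76 to 27.5 in NaCl, again without overlap. The BX5 to bx2 ratio did not overlap either (2.60 to 2.78, 3.00 to 3.27 and 4.09 to 27.2). The BX3 to bx2 ratio was 1.64 to 1.83 in CK, but NaCl+MT (2.02 to 2.10) and NaCl (2.00 to 18.1) overlapped. For bx6 to bx2, CK (1.64 to 2.06) and NaCl+MT (1.78 to 2.07) overlapped, with 2.28 to 23.5 in NaCl. The BX5 to BX3 ratio was 1.52 to 1.59 in CK and 1.46 to 1.56 in NaCl+MT. It was higher in NaCl replicates 2 and 3, at 2.16 and 2.05. In NaCl replicate 1, the library with the lowest level of both genes, it was 1.497, within the range of NaCl+MT.

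Within groups, bx1 to bx6 and bx8 varied together, with the spread of bx1 in NaCl known when the genes were chosen. Deviations of each library from its group mean of log2(FPKM + 1) correlated with those of bx1 at r = 0.923 to 0.997 for bx2, BX3, BX4, BX5, bx6 and bx8 over 9 libraries. NaCl replicate 1 had the largest deviation in each of these genes, and over the 6 CK and NaCl+MT libraries alone they were 0.809 to 0.992. CK replicate 1 was the lowest CK library for each of these 6 genes and bx1. For bx9 the r over 9 libraries was -0.18, for glu2 0.24 and for BX14 -0.96, where BX14 had 0.20 over the 6 libraries. Related genes over 9 libraries had 0.85 (orp1), 0.84 (TSA), 0.74 (Igl), 0.31 (orp2), 0.19 (igl1) and -0.96 (glu1). Over the 6 libraries these were -0.24, -0.58, 0.52, -0.98, 0.11 and -0.46 in the same order. Large r thus also occurred outside the pathway genes, and r was not computed for all tested genes. The points share libraries, depth and scaling, so these values are a description.

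The distance of NaCl replicate 1 below the other NaCl libraries was larger for bx1 to bx6 than for nearly all other genes. The NaCl values of bx1 were known when the genes were chosen, so the places below are a description. It lay at least 2 below both on the log2 scale in 40 of 22379 tested genes (0.179%), and bx1, bx2, BX3, BX4, BX5 and bx6 were among them. By the size of this gap bx1 (7.34) and bx2 (5.63) were the 1st and 2nd of all tested genes, BX5 (3.48) the 6th, BX3 (3.02) the 13th, BX4 (2.89) the 15th and bx6 (2.84) the 16th. Further down, bx8 (1.34) was the 171st, and glu2 (the 11631st) and bx9 (the 14458th) were not below both. In the other direction, NaCl replicate 1 was at least 2 above both in 63 genes (0.282%), BX14 among them. Why this library differs was not tested.

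The difference of NaCl+MT from CK was tested with limma, with Benjamini-Hochberg adjustment over all 22379 genes. None of the 10 genes differed at an adjusted p under 0.05, where 0.961% of all tested genes were called, 0.679% higher and 0.282% lower. None had an unadjusted p under 0.05 either, and the share of all tested genes under that unadjusted value was not computed. Of the 215 genes called 152 were higher, against 71 of 149 with median-ratio scaling and 115 of 253 with quantile normalisation. The log2 difference of bx1 was -0.83 (SE 1.61, limma adjusted p = 0.833), with a 95% interval from -4.40 to 2.74. The fit takes its spread from all 3 groups, NaCl included, and levels of bx1 and glu2 in both groups were known when the genes were chosen. Fitted on CK and NaCl+MT alone, the SE was 0.29, the interval -1.48 to -0.18, the unadjusted p 0.0181 and the limma adjusted p 0.122. The 3 NaCl+MT values of bx1 lay below the 3 CK values, as they did in 10% of tested genes (31.1% had no overlap, 21.1% with NaCl+MT higher), and this gene was the only one of the 10 without overlap. In the fit on 2 groups the intervals were -0.83 to 0.13 for bx2, -0.58 to 0.37 for BX3, -0.52 to 0.46 for BX4, -0.66 to 0.38 for BX5, -0.77 to 0.17 for bx6 and -0.68 to 0.18 for bx8. For bx9 the interval was -0.07 to 0.62, for BX14 -0.11 to 0.70 and for glu2 -0.24 to 0.45.

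**Figure D4:**
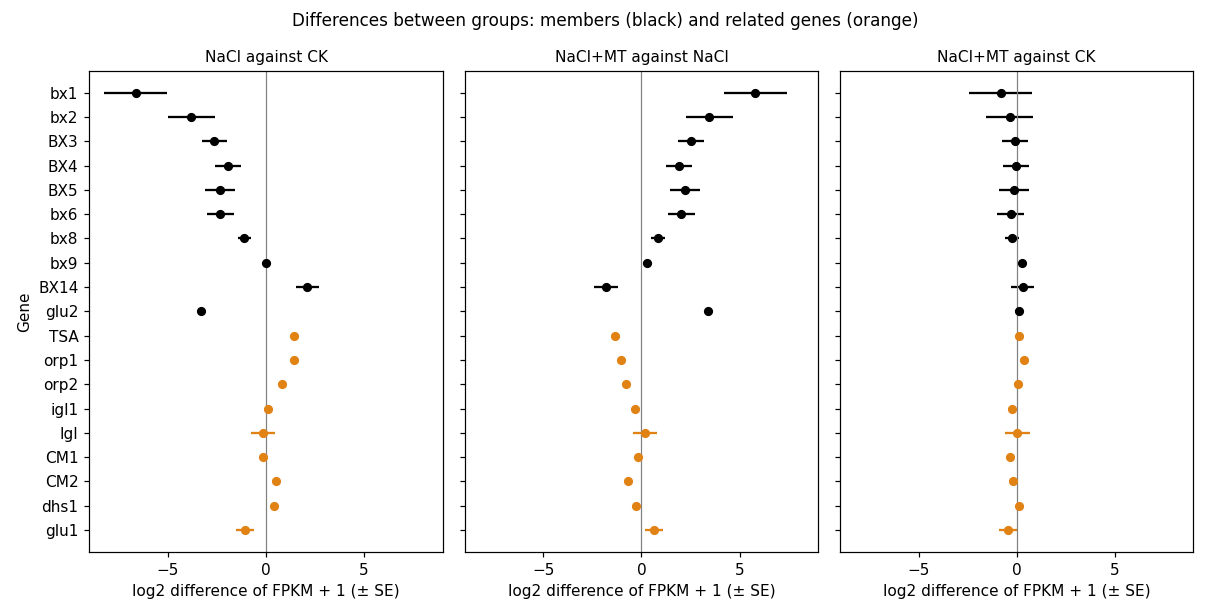
Log2 difference of FPKM + 1 with the SE of the limma fit (bars) for the 10 genes (black) and 9 related genes (orange) in each of the 3 comparisons. For NaCl against CK the black points run from -6.63 at bx1 to 2.11 at BX14, while TSA and orp1 lie at 1.44 and 1.42. For NaCl+MT against CK all points lie between -0.83 and 0.39.

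Genes around the pathway were taken from a list of names for indole, tryptophan and chorismate enzymes, beta-glucosidases and glycosyltransferases. The names BX13 and Bx7 belong to this list, but no row was matched to them alone, so they are missing here. The list gave 12 genes besides the 10, of which 9 passed the filter on low values. With NaCl against CK 5 of these 9 rose and none fell, where 13.6% of tested genes rose and 12.4% fell. With no filter 5 of 12 rose and 3 fell, the latter being the genes below the filter. There 2830 of all 32313 fitted genes rose and 2675 fell. Without NaCl replicate 1 3 of 9 rose and glu1 fell, where 2608 of 22379 tested genes rose and 2433 fell. The related genes called were 3 without CK replicate 1, 2 or 3 or NaCl+MT replicate 3. They were also 3 with median-ratio scaling, quantile normalisation or the replicate block. Of all 22379 tested genes 3908 to 5835 were called in these settings. With NaCl+MT against NaCl 4 of 9 fell and none rose, where 7.02% fell and 11.6% rose. With no filter 4 of 12 fell and 2 rose (UGT708A6 and UGT71A1), where 1486 of all 32313 fitted genes fell and 2520 rose. Without NaCl replicate 1 4 of 9 fell and glu1 rose, where 1559 of 22379 tested genes fell and 2427 rose. Of all calls in this comparison 2592 of 4164 were higher, and 2071 of 4025 with quantile normalisation. With NaCl+MT against CK none of 9 passed the threshold, where 0.961% of tested genes did. An unadjusted p under 0.05 was found for 1, which was orp1, and the share of all tested genes under that unadjusted value was not computed. The median log2 difference of the 9 was 0.40, -0.34 and 0.03 in these comparisons.

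TSA (GRMZM5G841619), the alpha subunit of tryptophan synthase, catalyses the same release of indole as BX1 but within the enzyme that makes tryptophan. It had 25.9, 23.8 and 23.2 FPKM in CK, 52.4, 73.9 and 79.1 in NaCl and 29.6, 24.4 and 25.3 in NaCl+MT. It rose in NaCl (log2 difference 1.44, SE 0.17, limma adjusted p = 0.000214) and was lower again in NaCl+MT than in NaCl (-1.32, SE 0.17, adjusted p = 0.000537), higher in 3 of 3 NaCl libraries than in any other. The beta subunit gene orp1 (GRMZM2G169593) did likewise, with 23.0, 23.1 and 19.1 in CK, 46.2, 69.0 and 66.1 in NaCl and 30.3, 27.6 and 28.3 in NaCl+MT (1.42, adjusted p = 0.000232 and -1.03, adjusted p = 0.00226 by limma). The orp1 to TSA ratio stayed between 0.825 and 1.13 in all libraries. The other beta subunit gene, orp2 (GRMZM2G005024), rose from 13.6 ± 3.78 to 24.2 ± 3.57 (SD, n = 3; 0.81, limma adjusted p = 0.0113) and had 13.8 ± 1.56 in NaCl+MT (-0.76, limma adjusted p = 0.0198). The latter call was lost in 4 of 22 alternatives. Among them were those without NaCl replicate 2 (0.0557), NaCl+MT replicate 2 (0.0798) or NaCl+MT replicate 3 (0.0669). The limma adjusted p ran from 0.00220 to 0.0798 over all alternatives.

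The genes for indole release, bx1 and TSA, differed from CK in opposite directions in NaCl. Because the NaCl levels of bx1 were known when the genes were chosen, their ratio is a description. The bx1 to TSA ratio was 109, 251 and 201 in CK, 0.00402, 2.64 and 4.29 in NaCl and 75.2, 111 and 93.3 in NaCl+MT. Every NaCl library stood far below the other groups, and NaCl+MT overlapped with CK.

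**Figure D5:**
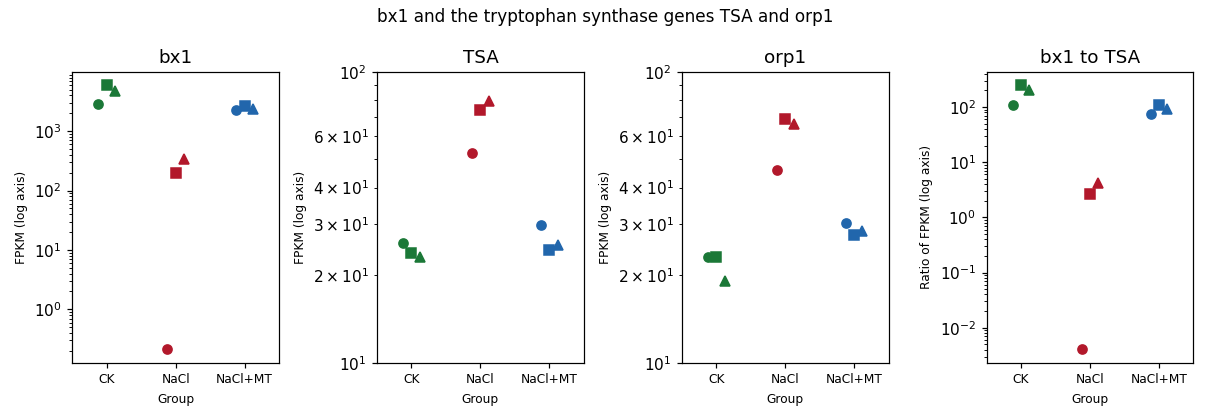
FPKM (log axes) of bx1, TSA and orp1 and the bx1 to TSA ratio (last panel) in the 9 libraries by group, with the replicate as the symbol (circle 1, square 2, triangle 3). In NaCl bx1 is at or below 339 FPKM while TSA and orp1 are at their highest, 52.4 to 79.1 and 46.2 to 69.0.

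A pair of genes carries the name of indole-3-glycerol phosphate lyase, which in maize releases free indole as a volatile. The gene igl1 (GRMZM2G046191) had 19.8 ± 0.190 FPKM in CK, 21.2 ± 1.27 in NaCl and 16.6 ± 2.61 in NaCl+MT (SD, n = 3), and passed no test (limma adjusted p = 0.655 in NaCl against CK, 0.117 between NaCl+MT and NaCl). Igl (GRMZM2G046163) had 3.08, 41.7 and 9.46 in the NaCl libraries, on both sides of the 9.85 to 16.8 of CK and the 11.99 to 13.6 of NaCl+MT, and passed no test either (limma adjusted p = 0.876 and 0.868). The difference of Igl between NaCl and CK was -0.16, and 0.63 without NaCl replicate 1 (limma adjusted p = 0.339). Without NaCl replicate 2, which held its highest value, it was -1.06 (limma adjusted p = 0.0492).

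The chorismate mutase genes, whose enzymes lead chorismate away from indole towards phenylalanine and tyrosine, gave smaller differences. CM2 (GRMZM2G179454) rose from 13.2 ± 0.617 to 19.2 ± 2.57 FPKM in NaCl (SD, n = 3; 0.49, limma adjusted p = 0.0372), and had 11.8 ± 1.95 in NaCl+MT, lower than in NaCl (-0.66, limma adjusted p = 0.0135). The call between NaCl+MT and NaCl was lost in 2 of 22 alternatives. One was the fit on the groups compared without NaCl replicate 1, chosen after seeing the data (limma adjusted p = 0.0539). The rise in NaCl was lost in 12 of 22 alternatives, with a limma adjusted p of 0.0240 to 0.265 over all of them, among them those without CK replicate 1 (0.0866), CK replicate 2 (0.0717), CK replicate 3 (0.103), NaCl replicate 1 (0.0955) or NaCl+MT replicate 3 (0.0578). CM1 (GRMZM2G028369) had 41.3 ± 2.53, 37.0 ± 3.24 and 32.8 ± 5.85 and passed no test. The gene dhs1 (GRMZM6G028994) had 19.6 ± 0.782 in CK and 26.3 ± 3.22 in NaCl (0.40, limma adjusted p = 0.0451). That call was lost in 15 of 22 alternatives (0.0168 to 0.127), which include leaving out any CK replicate, NaCl replicate 1 or 2, or NaCl+MT replicate 2 or 3.

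The better known glucosidase gene glu1 (GRMZM2G016890), by sequence a close relative of glu2, was far more abundant. It had 830, 661 and 861 FPKM in CK, 883, 308 and 185 in NaCl and 581, 628 and 523 in NaCl+MT. With all libraries it passed no test (log2 difference of NaCl from CK -1.07, SE 0.45, limma adjusted p = 0.104, and of NaCl+MT from NaCl 0.64, adjusted p = 0.364). Without NaCl replicate 1, where glu1 was highest of all 9 libraries, it was lower in NaCl than in CK (-1.70, SE 0.24, limma adjusted p = 0.000658) and higher in NaCl+MT than in NaCl (1.27, adjusted p = 0.00512). The glu1 to glu2 ratio was 62.2 to 98.5 in CK and 48.3 to 51.2 in NaCl+MT, against 8827, 7701 and 427 in NaCl replicates 1, 2 and 3. How reads shared by the similar sequences were counted is not given in the sources used here.

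On the RefSeq assembly Zm-B73-REFERENCE-NAM-5.0, used for names and gene order only, 7 of the 10 genes lie on chromosome 4. Of these bx1 and bx2 are direct neighbours, BX5 and bx8 too, and 1 other gene stands between BX3 and BX4, between BX4 and BX5 and between bx8 and bx1. The 7th gene, bx6, is separated from BX3 by 65 genes. The 7 genes on chromosome 4 are those whose levels were lower in NaCl and varied with bx1, with bx8 showing the smallest difference. Outside it, bx9 on chromosome 1, BX14 on chromosome 2 and glu2 on chromosome 10 each had another pattern.

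Over all 9 libraries, several of these genes were close to bx1 in log2(FPKM + 1), among more genes from outside the group. Of 22378 other tested genes BX3 was the 2nd (Pearson r = 0.995), bx2 the 4th (0.992), BX5 the 9th (0.990), bx6 the 16th (0.984), BX4 the 24th (0.982) and bx8 the 90th (0.959), while BX14 was the 22367th (-0.98). Named genes outside the group that were most like bx1 were mwp1 (GRMZM2G082264, 0.983), AAMT1 (GRMZM2G039993, 0.966), pcr1 (GRMZM2G084958, 0.963), pck2 (GRMZM5G870932, 0.962) and Cat0 (GRMZM2G090568, 0.962). AAMT1, an anthranilate methyltransferase gene, had 160, 319 and 292 FPKM in CK, 34.1, 120 and 178 in NaCl and 204, 229 and 229 in NaCl+MT. The named genes most like glu2 were bHLH173 (GRMZM5G882527, 0.987), kin1 (GRMZM2G158394, 0.984), lox10 (GRMZM2G015419, 0.980), phyS11 (GRMZM2G140101, 0.980) and CSLD1 (GRMZM2G015886, 0.978), a cellulose synthase-like gene, and bx1 was the 2012th (0.813). With 9 libraries in 3 groups these r mostly restate the difference of NaCl from the rest and have no test.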

How the data were processed

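The FPKM values of 39301 genes in the 9 libraries are as the authors deposited them. HISAT2, featureCounts, DESeq2 and the build B73 RefGen_v3 are named, per the submitters' processing notes, without roles or versions. Identifiers were named through a RefSeq table of another assembly, where 18387 matched exactly 1 gene. Genes that reached 1 FPKM in 3 or more libraries, 22379 in all including the 10 described, were fitted as log2(FPKM + 1) with limma 3.58.1 in R 4.3.3 (3 group means, mean-variance trend), with Benjamini-Hochberg adjustment, a threshold of 0.05 and 2-sided p-values. Each SE is the moderated one. Fold changes of low genes are drawn towards 0 by the pseudocount of 1. Total reads are not given. Relative depth came from the commonest ratio between low values, with a factor of 2 in CK replicate 2 settled from values midway between steps (55.2% of them, tolerance 0.06 reads). The members and lists were chosen with earlier results of these data known. Named genes are the 10, the related genes called, every related gene of a bx, igl, tsa, tsb or glu name, and the 5 named genes most like bx1 and glu2. CM1 and dhs1 complete the related list. Alternatives covered pseudocounts, filters, scaling, weights, groups in the fit, the replicate number as a block and each library left out.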

Additional observations from a re-analysis of the deposited data

How the results depend on the processing

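Of the 10 genes, only bx9 changed the sign of its difference of NaCl from CK under the 22 alternatives (-0.071 to 0.16), and none that of NaCl+MT from NaCl. Leaving out 1 library at a time gave 9 members without overlap for NaCl against CK and 9 to 10 for NaCl+MT against NaCl. The share of tested genes without overlap was computed with all libraries only (40.9% and 36.6%), so nothing is read from these counts. Genes called were then 3908 to 6142 for NaCl against CK, 2325 to 4336 for NaCl+MT against NaCl and 6 to 875 for NaCl+MT against CK. The full fit gave 5808, 4164 and 215. In the same order 3 to 5, 3 to 5 and 0 related genes were called, and 0 members for NaCl+MT against CK. The count for NaCl+MT against CK was 54 with no filter, 123 with a minimum of 5 FPKM, 3663 with array weights, 1082 with only those groups, 72 with the replicate block and 1068 without both NaCl replicates 1 and 3, and no member was called in any of these. The other comparisons gave 3684 and 2605 with a minimum of 5 FPKM and 2597 and 1754 without both NaCl replicates. The 5 related genes called for NaCl against CK were 3 with median-ratio scaling, quantile normalisation, only those groups or the replicate block. Of all 22379 tested genes 5835, 5618, 4231 and 4934 were called there. With no filter 8 related genes were called, where 5 rose and the 3 genes below the filter fell, against 5505 of all 32313 fitted genes. With array weights 1 (orp1, limma adjusted p = 0.0425) was called for NaCl+MT against CK. Same-numbered libraries did not deviate together (r from -0.37 to 0.15, against -0.22 to 0.24 for other pairs). With groups of 3 this cannot show whether the numbers mark sets handled together. TSA and orp1 were called in both comparisons with NaCl under all 22 alternatives.

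Signs turned in a few cases, in which the full fit called nothing. Leaving out 1 library at a time gave -1.06 to 0.63 for Igl in NaCl against CK (0.036 without CK replicate 3), -0.60 to 1.09 in NaCl+MT against NaCl and -0.13 to 0.23 in NaCl+MT against CK (-0.000326 without NaCl+MT replicate 1). In the last comparison it gave -0.30 to 0.045 for BX3, -0.25 to 0.10 for BX4 (0.054 without CK replicate 3), -0.36 to 0.017 for BX5, -0.020 to 0.24 for glu2 and -0.095 to 0.25 for orp2 (-0.0099 without CK replicate 3, -0.033 without NaCl+MT replicate 1). Without both NaCl replicates 1 and 3, where the lone NaCl library is assumed to vary like the other groups, Igl was 1.65 and -1.61 in the first comparisons, with array weights 0.54 and -0.55, and in a fit on the groups compared without NaCl replicate 1, chosen after seeing the data, 0.63 and -0.60. In NaCl+MT against CK Igl was -0.062 with median-ratio scaling, -0.018 with quantile normalisation and -0.011 with array weights, and orp2 -0.045 and -0.000744 with these scalings. The causes were not tested. Groups of 3 and the unknown read totals limit precision.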

Other observations

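The gene that follows bx2 on chromosome 4 in the RefSeq order, GRMZM2G085854, is not a named benzoxazinoid gene and was looked at after the values of its neighbours were known. It had 48.8, 80.2 and 66.1 FPKM in CK, 1.74, 31.3 and 25.3 in NaCl and 61.4, 61.5 and 59.7 in NaCl+MT. Every NaCl library lay below all others, with NaCl replicate 1 at 6.15% of the mean of the other NaCl libraries, as in the P450 genes beside it. On the far side of BX3, the transcribed pseudogene GRMZM5G882288 varied between 1.54 and 14.3 without separating the groups.

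Of the related genes below the filter, dhs2 (GRMZM2G703077) had 0.715, 0.736 and 1.33 FPKM in CK, 0.04, 0 and 0 in NaCl and 0.048, 0.137 and 0.285 in NaCl+MT. UGT708A6 (GRMZM2G162783) had 0.245, 0.198 and 0.192 in CK, was listed at 0 in all 3 NaCl libraries and had 0.117, 0.131 and 0.254 in NaCl+MT. UGT71A1 (GRMZM2G165390) had 0.302, 0.365 and 0.425 in CK, 0.052, 0.144 and 0.075 in NaCl and 0.601, 0.697 and 0.542 in NaCl+MT. In the fit with no filter all 3 were lower in NaCl than in CK (limma adjusted p from 0.00217 to 0.00772). There UGT708A6 and UGT71A1 were higher in NaCl+MT than in NaCl (limma adjusted p = 0.0182 and 0.00112), and dhs2 passed no test in that comparison (0.377).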
